A study of Mus musculus with 45 samples.

Results

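The rows described here were higher in hepatic stellate cells (HSCs) after 8 weeks of CCl4 than after vehicle, while their end-point levels in Western diet feeding and in culture stayed near control. They are 150 of the 23999 rows in the deposited count tables. The level of a row in a group was written as log2(mean CPM + 1), where CPM is the count scaled to the total count of its library. A row was eligible when its level reached 3 in any group and differed by less than 0.5 from control after 24 weeks of diet and after 12 days of culture. Of 13336 rows with a level of 3 or more, 2426 were eligible, and the 150 with the highest difference between 8 weeks of CCl4 and vehicle were taken. That difference is called the 8-week difference below. In 15 members the level at 8 weeks was itself under 3, and they were eligible through another group. Rows are named by their line number, because the identifiers listed in the tables did not follow the counts. For instance, odorant receptors are not expected in liver, yet the mean count was 10 or more in 56.2% of the 1105 rows listed as such and in 56.4% of all rows. No row is therefore given a gene name or a function, and the identity of the sorted cells was not checked against marker genes.

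HSCs are the vitamin A-storing pericytes of the liver sinusoid. On injury they lose their retinoid droplets and become contractile, matrix-producing myofibroblasts, the main source of scar collagen. CCl4 is turned into a radical by hepatocytes around the central vein, kills them, and drives repeated rounds of necrosis and repair. A Western diet with fructose instead loads hepatocytes with fat over months and leads to steatohepatitis, while HSCs plated on stiff plastic activate without any liver injury.

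The 45 libraries of polyA RNA fall into 13 groups of HSCs from male mice (C57BL6/J in the labels, C57BL/6JBomTac in the methods). In the CCl4 experiment, 4 control mice received corn oil for 8 weeks, and 3, 4 and 3 mice received CCl4 in corn oil by oral gavage for 1, 4 and 8 weeks (1w, 4w, 8w). Mice were fasted overnight before gavage, and controls were fasted accordingly. The 1w and 4w mice thus had fewer gavages and fasts than the vehicle mice, which cannot be told apart from time on CCl4. In the WD experiment, 4 mice each were fed chow with plain water or a Western diet with fructose in the water for 12, 16 or 24 weeks, and all had the same age at the end. For in vitro transdifferentiation (IVT), cells of healthy mice were sorted and kept 2 hours in suspension (d0) or cultured on plastic in medium with serum for 1, 4, 8 or 12 days, with 3 libraries per time point. The methods call these cultures technical triplicates and the sequenced RNA biological replicates, so IVT tests may describe wells and not mice. All cells were FACS sorted as live cells with retinoid autofluorescence, a property that HSCs lose on full activation. In the mouse experiments, cells that had lost it were not collected. Cultured cells were sorted before plating and not again at harvest. Total counts ranged from 2318311 to 7576527 in CCl4, from 2425443 to 6404105 in WD and from 3556607 to 7568415 in IVT. In these bulk libraries, fewer cells carrying an RNA and less of it per cell cannot be told apart.

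The 8-week differences that chose the rows ranged from 0.67 to 6.59, with a median of 0.97 and quartiles of 0.78 and 1.68. The difference was 1 or more in 72 rows, 2 or more in 31 and 3 or more in 18. Among all 2426 eligible rows, the median difference was 0.00, and 28 rows were lower than vehicle by 1 or more. Just inside the limit were rows 5087, 9470 and 13285 with differences of 0.672, 0.667 and 0.667. Just outside it were rows 21085, 17981 and 2723 with 0.665, 0.665 and 0.658. Nothing separates the last members from the next rows in line. The 24-week diet differences of the members ran from -0.47 to 0.5, with a median of 0.14. The 12-day culture differences ran from -0.49 to 0.5, with a median of 0.09. Some of the smaller 8-week differences were thus not far above the diet difference of the same row. Row 13285 had 0.67 for CCl4 and 0.45 for the diet.

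Rows that were low in vehicle-treated mice had the larger differences. The 72 rows with a difference of 1 or more had a median level of 1.94 in vehicle and 4.12 at 8w, and the other 78 rows had 4.65 and 5.46. Across the 150 rows, the difference and the vehicle level were inversely related (Pearson's r = -0.62, Spearman's rho = -0.66). This correlation is only a description, since both measures use the same vehicle libraries.

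Row 8573 had the highest difference. Its levels in the 4 vehicle libraries were 0.436, 0, 0 and 0.347 CPM. They were 5.41, 7.44 and 3.21 CPM at 1w, then 33.6, 47.0, 58.2 and 46.2 CPM at 4w, and 84.8, 129 and 129 CPM at 8w. The 4 CCl4 groups of this row did not overlap. The ratio of 8w to vehicle rests on only 3 counts over the 4 vehicle libraries, none of which passed the floor, so its exact 95% counting interval, from 201 to 2860, says more than its value of 590. Under the diet the row stayed between 0 and 2.81 CPM in all 12 libraries, and chow libraries reached 2.11 CPM. In culture it never passed 0.427 CPM.

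Row 54 was measurable before treatment and rose sooner. It had 2.83, 3.10, 3.59 and 0.347 CPM in vehicle, 28.1, 40.4 and 17.3 CPM at 1w, and 61.5, 79.1, 135 and 142 CPM at 4w. The 8w libraries held 105, 100 and 115 CPM, within the range of the 4w libraries. The 8w to vehicle ratio was 40.0, with an exact 95% counting interval from 29.6 to 55.3. In chow libraries it lay between 1.64 and 6.16 CPM, in diet-fed libraries between 0.827 and 4.24 CPM, and in cultured libraries at or below 1.32 CPM.

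Row 22185 had no count in any vehicle library. It held 3.17, 3.95 and 1.71 CPM at 1w, 25.9, 30.5, 17.6 and 52.7 CPM at 4w, and 20.6, 25.4 and 27.9 CPM at 8w. With a floor of 3 counts over the vehicle group, it was at least 131-fold higher at 8w. Its highest value in any chow, diet-fed, suspended or cultured library was 0.425 CPM. It was 1 of 14 members with no vehicle library above 3 counts, the floor for a single library. Row 8573 was another of them, and the vehicle level of these rows is poorly known.

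Rows 13955, 16275 and 23040 were late risers with the same near absence elsewhere. Row 16275 held 0, 1.21 and 0 CPM at 1w, then 16.8, 16.7, 14.9 and 25.2 CPM at 4w, and 19.9, 25 and 26.4 CPM at 8w. In row 13955 the 8w libraries were uneven, with 74.0, 18.5 and 24.6 CPM, and the 4w libraries held 13, 34.9, 16.4 and 32.7 CPM. Row 23040 went from at most 1.21 CPM at 1w to between 8.55 and 16.0 CPM at 4w and between 18.1 and 24.4 CPM at 8w. Outside the CCl4 experiment, the 3 rows stayed at or below 0.464 CPM.

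Rows 16866, 11072, 8813 and 2597, the rest of the 10 highest, were already well above vehicle at 1w. Row 11072 was highest at 4w, with 24.0, 30.2 and 15 CPM at 1w, 66.2, 100, 28.8 and 48.9 CPM at 4w, and 44.5, 26.7 and 25.1 CPM at 8w. Row 8813 held 13.5, 15 and 4.71 CPM at 1w and between 9.24 and 14.3 CPM at 4w, and its 8w libraries were higher than all of these, at 31.8, 26.7 and 28.4 CPM. Rows 8813 and 16866 were not silent in culture. Row 8813 fell from between 5.39 and 8.44 CPM at d0 to between 0.425 and 0.905 CPM at d1, and it was between 9.76 and 13.5 CPM at d8.

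**Figure D1:**
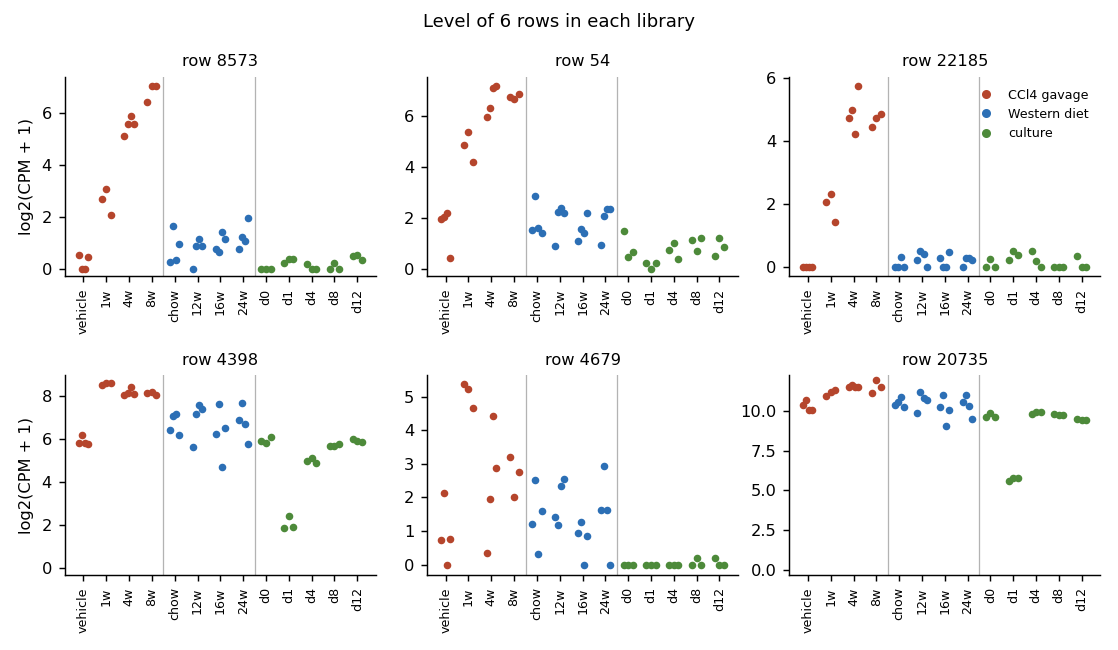
Level, as log2(CPM + 1), of 6 rows in each of the 45 libraries, grouped along the horizontal axis by treatment time in CCl4, Western diet and culture. Rows 8573, 54 and 22185 are high in CCl4-treated mice and low in the other experiments, while rows 4398 and 20735 are also abundant in the other experiments and dip to 2.08 and 5.71 (levels of the group means) on day 1 of culture.

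The most abundant members belonged to the other kind of row, high everywhere and modestly higher under CCl4. Row 20735 was the highest at 8w, with 2230, 3850 and 2920 CPM. In vehicle it held 1300, 1650, 1060 and 1050 CPM, and in chow 1310, 1500, 1910 and 1220 CPM. Its difference was 1.24, and no 8w library overlapped the vehicle libraries. Diet-fed libraries ranged widely, from 535 to 2340 CPM, so the highest of them passed the lowest 8w library. The next rows by 8w level, 5516, 4996, 21606 and 468, had differences of 0.91, 0.92, 0.71 and 0.79.

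Onset was described by the first time point at which a row stood at 50% or more of its 8-week difference above vehicle. By that measure, 58 rows had their onset at 1w, 84 at 4w and 8 at 8w. The median row reached 36.7% of its difference at 1w and 91.0% at 4w. The spread at 1w was wide, with quartiles of -0.3% and 67.5%, and 38 rows lay below vehicle at that time. At 4w none of the 150 rows was below vehicle, and 60 had passed their 8w level. The highest CCl4 group was 8w for 88 rows, 4w for 54 and 1w for 8.

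The rows with an onset at 1w started low. Their median level was 2.92 in vehicle, 4.29 at 1w, 4.66 at 4w and 4.63 at 8w. Those with an onset at 4w went from 4.11 in vehicle to 3.85 at 1w, 4.98 at 4w and 5.16 at 8w. The 8 late rows had 3.37, 3.01, 3.71 and 4.22. Among the 72 rows with a difference of 1 or more, 34 had their onset at 1w, 38 at 4w and 0 at 8w, whereas the 78 smaller ones divided into 24, 46 and 8. All these onset counts use the contrast that chose the rows.

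The median over the 150 rows was also taken in each library. It was 3.56 ± 0.068 in vehicle (SD, n = 4), 4.107 ± 0.274 at 1w (n = 3), 4.818 ± 0.059 at 4w (n = 4) and 4.83 ± 0.02 at 8w (n = 3). At 1w the libraries were uneven, with 4.27, 4.26 and 3.79. The lowest of them, replicate C, was also the smallest library of its group, with 4674910 counts against 7576527 and 6586942. The part of library size in this gap was not tested. Every 1w library was above every vehicle library and below every 4w library.

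**Figure D2:**
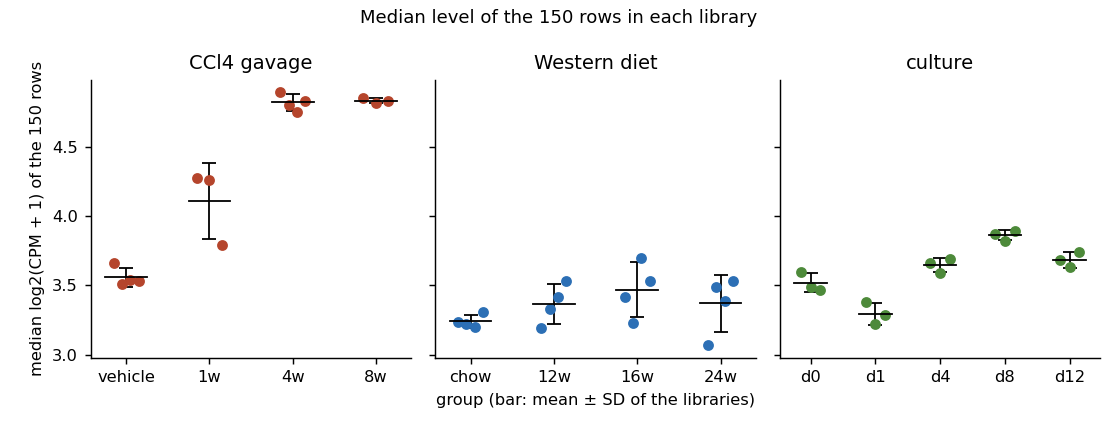
Median log2(CPM + 1) of the 150 rows in each library (points), with the mean and SD of each group (bars), for CCl4, Western diet and culture; the vertical axis starts near 3. The CCl4 libraries climb from 3.56 in vehicle to 4.818 at 4 weeks and 4.83 at 8 weeks, while all WD and IVT groups have means between 3.242 and 3.86.

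The 1w and 4w groups of the CCl4 experiment had no part in choosing the rows beyond the floor on the level in any group. The step between them was therefore tested row by row. The rows were, however, chosen for a high end point under CCl4, and the median member reached 91.0% of its difference at 4w. More rises and fewer falls than in all rows can thus follow from the choice. The comparison of members with all rows is a description. edgeR's quasi-likelihood test was run over all rows, with all 14 CCl4 libraries in the fit, and calls required an FDR (Benjamini-Hochberg) no higher than 0.05 together with an average log2CPM over 2. Rows with an average log2CPM over 2 are those counted as tested, among them 145 members. Between 1w and 4w, 64 rose (44.1%), against 22.8% of all 12216 rows tested, and 5 fell (3.45%), against 23.0% of all rows. The median log2 fold change was 0.56 in the members and 0.01 in all rows, and 125 of the 145 members (86.2%) had a value above 0, against 50.7% of all rows. Rows 7044, 17621, 4679, 18627 and 5178 met the floor only at 1w or 4w, and so owe their place to the groups compared. Without these 5, 61 of 140 members rose (43.6%) and 4 fell (2.86%), with a median of 0.56, and of all rows that met the floor in another group 22.9% rose and 23.1% fell. When libraries were scaled by their totals instead of TMM, all rows divided into 3619 that rose and 2147 that fell, against 2791 and 2809, and the members into 78 and 5. Without 1w replicate A, the deepest of the 1w libraries, the calls among members dropped to 40 that rose and 4 that fell, and those among all rows to 1944 and 2275.

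In 93 members all 4w libraries lay above all 1w libraries, a pattern that held for 30.9% of the 13336 rows with a level of 3 or more. In 4 members all 4w libraries lay below all 1w libraries. The share of all rows with this second pattern was not taken. These counts are descriptions too, since the members were chosen for a high end point under CCl4.

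**Figure D3:**
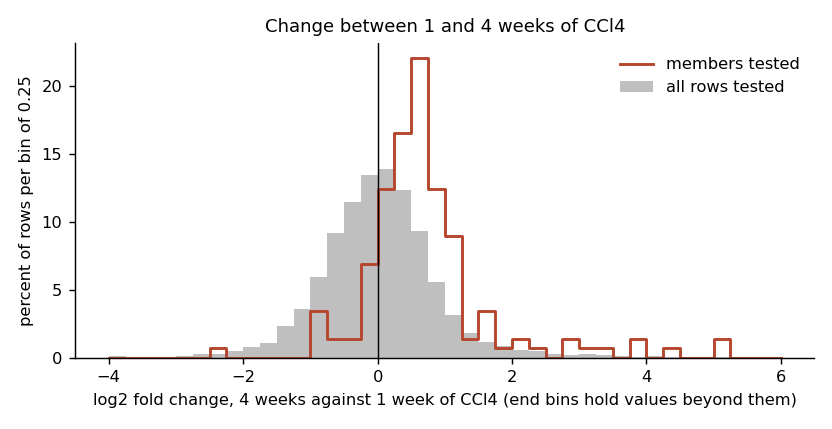
Log2 fold change from 1 to 4 weeks of CCl4 for all 12216 rows tested (grey bars) and the 145 members tested (red line), as the percent of rows in each bin of the horizontal axis. The members are centred on 0.56 with a tail to 5.24, while all rows are centred on 0.01.

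The 5 largest changes upward in this step were in rows with little signal at 1w. Row 16275 had a log2 fold change of 5.24 ± 0.63 (SE; FDR 2.2e-05, edgeR), row 13955 had 4.43 ± 0.73 (FDR 0.00026) and row 23040 had 3.94 ± 0.55 (FDR 6.4e-05). Row 7044 held 0.528, 0.911 and 0.214 CPM at 1w and 4.69, 10.3, 11.6 and 9.24 CPM at 4w, a description with no test, since only its 4w level met the floor. Row 22447 changed by 5.07 ± 0.78 (FDR 0.00014), from 0.132, 0.304 and 1.07 CPM to between 9.53 and 22.9 CPM. In this row 1 vehicle library held 11.8 CPM against 1.74, 1.91 and 2.11 CPM in the others, so vehicle and treated libraries overlapped.

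The 5 members that fell between 1w and 4w were rows 4679, 15168, 305, 13816 and 4398. Row 4398 was abundant and even. It stood at 55.2, 70.4, 54.9 and 52.8 CPM in vehicle, 364, 387 and 382 CPM at 1w, 265, 278, 339 and 266 CPM at 4w and 281, 283 and 261 CPM at 8w. The fall from 1w to 4w was -0.53 ± 0.13 (FDR 0.0049, edgeR), so most of the early rise was still present at 8w. Row 4679 had a sharper peak, with 40.1, 36.7 and 24.2 CPM at 1w and 0.276, 2.86, 20.5 and 6.31 CPM at 4w, values given with no test, as it met the floor only in these groups. Rows 305, 15168 and 13816 showed a sag at 4w. Row 305 held 106, 118 and 110 CPM at 1w, 47.7, 43.3, 112 and 78.6 CPM at 4w, and 104, 115 and 119 CPM at 8w. Its 4w libraries ranged from below all vehicle libraries to the level of 1w.

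No member was called between 4w and 8w by edgeR, among 148 tested. The same was true of all rows, with 0.0% of 12318 rows called higher and 0.0% called lower, and a smallest FDR of 0.068. At an unadjusted p under 0.05, 1668 rows passed, of which 15 members were higher and 8 lower, and DESeq2 called 283 rows and 6 members. The 8w libraries also served to choose the members, so the median change of 0.12 from 4w to 8w is a description. Rows 8573, 8813 and 2597, none of them called, changed by 1.32 ± 0.25, 1.33 ± 0.3 and 1.39 ± 0.34 (SE). They were named for their high 8-week differences, so these values are descriptions too.

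Against vehicle, whose libraries the rule also used, the calls serve only to place the rows in time. At 1w, 39 of 120 tested members were higher, with a background of 15.6% of all rows, and 2 were lower, with a background of 11.1%. Those 2, rows 4361 and 13441, were singled out after their values were seen. Row 13441 held 15.3, 12.2, 11.6 and 11.1 CPM in vehicle and 5.54, 4.25 and 6.85 CPM at 1w, a log2 fold change of -1.21 ± 0.22 (FDR 0.00071, edgeR). At 4w, 100 of 144 were higher, with a background of 25.6%. At 8w the count was 115 of 139, with a background of 23.9%, and in 122 of the 150 rows all 8w libraries lay above all vehicle libraries, which held for 29.1% of rows with a level of 3 or more. Nothing is read from these shares, since the rule fixed the direction.

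**Figure D4:**
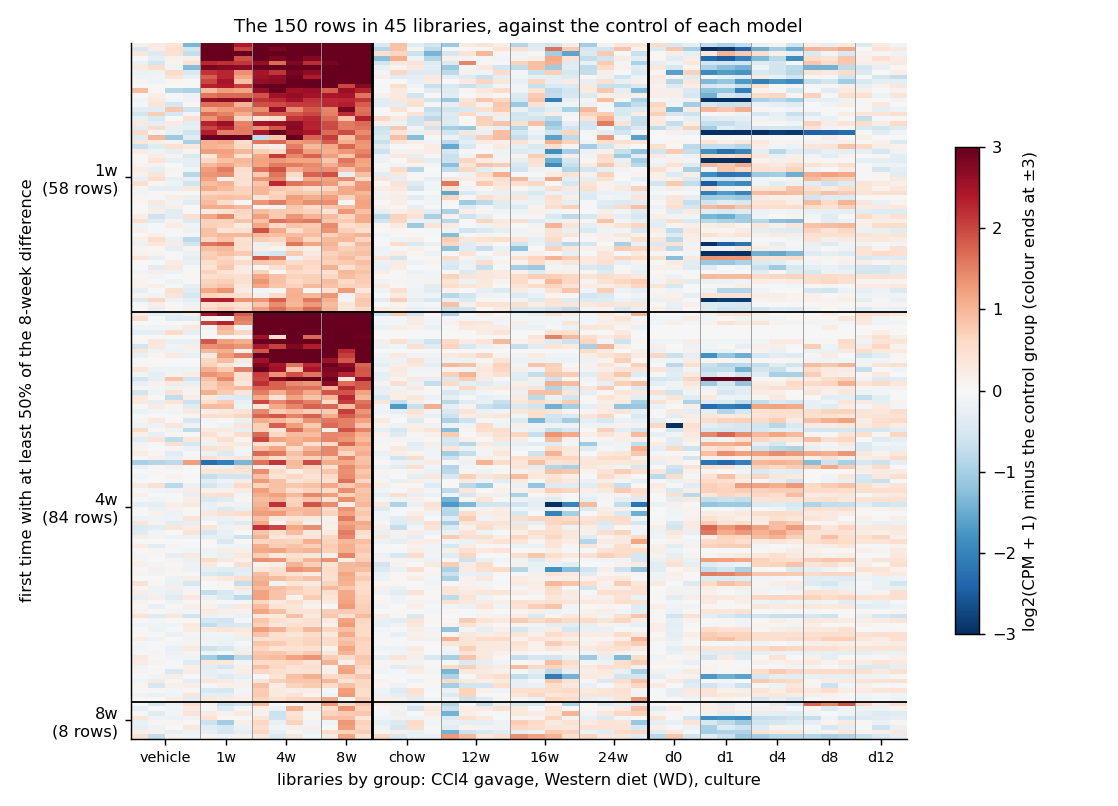
Difference of log2(CPM + 1) from the control group of the same experiment for the 150 rows (vertical axis, grouped by onset at 1, 4 or 8 weeks of CCl4 and ordered by 8-week difference) in the 45 libraries (horizontal axis); colours end at ±3. The 58 rows of early onset are raised in the 1w libraries, the 84 rows of later onset mainly from 4w on, and several early rows are blue on day 1 of culture.

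The 3 libraries at 8w did not weigh equally. Replicate B had the highest value in 75 rows, replicate A in 49 and replicate C in 26. Replicate B was also the smallest library of the experiment, with 2318311 counts, and it was the highest in 52 of the 84 rows with an onset at 4w. Whether its size had a part in this was not tested. The highest 8w library exceeded the lowest by a median factor of 1.67, and by more than 2 in 47 rows. The factor was largest in row 440, at 12.14, where the 8w libraries held 10.5, 0.863 and 7.79 CPM. Without replicate B, 134 of the 150 rows kept a difference of 0.5 or more, and 118 would still have been chosen. In 23 rows the removal of some single vehicle or 8w library took the difference below 0.5, and the lowest value reached was 0.23. That was row 5087, with 41.9, 113 and 66.3 CPM at 8w against 41.6, 39.8, 42.8 and 59.4 CPM in vehicle.

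In mice fed the Western diet, the members stayed close to chow at the time points that the rule did not use. The median level was 3.27 in chow and 3.41, 3.48 and 3.44 after 12, 16 and 24 weeks. At 12 weeks 137 of the 150 rows were within 0.5 of chow, and at 16 weeks 111 were. Over all rows with a level of 3 or more, 15.43% were higher than chow by 1 or more at 12 weeks and 19.41% at 16 weeks, whereas 0 and 1 of the members were. Since the chow libraries and the 24-week level were used in the choice, these counts are descriptions. The edgeR calls against chow were 8 higher and 0 lower of 100 tested at 12 weeks, where the background was 20.7% and 7.36%, and 16 higher and 3 lower of 101 at 16 weeks, where it was 30.3% and 26.8%. The 3 lower ones, rows 8750, 9767 and 15935, were named after their values were seen. At 24 weeks, the end point that the rule used, 6 of 99 were called higher and 0 lower, with a background of 26.4% and 18.3%.

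The 12-week and 16-week groups served in the choice only through the floor on the level, which 1 member, row 9470, met at 16 weeks alone. The step between them was tested with the same method over the 16 WD libraries, and the calls were the same without that row. Of 101 members tested, 3 rose (2.97%), against 9.45% of all 12404 rows, and 1 fell (0.99%), against 3.75%. Leaving out 12-week replicate C, 16-week replicate C or 16-week replicate D reduced these calls to 0, and DESeq2 called 8. The 4 rows were 8013, 10042, 21803 and 8750, the last 3 of which were named after their values were seen. Row 8750 held 25, 46.6, 64.0 and 70.6 CPM at 12 weeks and 28.7, 35.4, 10.6 and 17.7 CPM at 16 weeks, a log2 fold change of -1.18 ± 0.36 (FDR 0.043, edgeR). Row 21803 held 32.3, 60.6, 50.6 and 59.0 CPM at 12 weeks and 62.7, 69.0, 107 and 101 CPM at 16 weeks, a change of 0.7 ± 0.2 (FDR 0.032).

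The rows farthest from chow at 12 weeks are given as values, since edgeR called none of those named below at that time. Row 11090 was under the limit on average log2CPM, so it could not be called, and the others had edgeR FDR between 0.06 and 0.31. Row 11090 held 1.85, 2.92, 3.32 and 1.82 CPM in chow and 5.79, 5.36, 3.05 and 4.50 CPM at 12 weeks, and the lowest diet-fed library was below the highest chow library. Under CCl4 the same row went from 5.23, 5.25, 4.85 and 4.86 CPM in vehicle to 48.1, 37.1 and 19.3 CPM at 8w. Row 1959 held 20.3, 26.4, 46.5 and 45.6 CPM at 12 weeks against 87.0, 36.0, 58.5 and 94.0 CPM in chow. Its 16-week libraries spread from 3.97 to 55.8 CPM. Row 8013 held 19.2, 33.8, 38.2 and 41.8 CPM at 12 weeks against 54.6, 61.1, 45.7 and 51.7 CPM in chow, and its 16-week libraries held 43.9, 46.9, 90.7 and 86.2 CPM. The step from 12 to 16 weeks was 0.96 ± 0.28 in this row (SE). Row 8013 was picked on the 12-week libraries that enter this step, so the value is a description. Row 9470, just inside the limit, held 9.93, 7.83, 4.58 and 5.33 CPM at 12 weeks of diet, against 5.92, 2.27, 2.81 and 2.92 CPM in chow, and 3.78, 8.2 and 4.27 CPM at 8w, so that diet-fed and CCl4-treated libraries overlapped.

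A group mean near chow did not mean that every diet-fed mouse was below the CCl4-treated mice. In 57 of the 150 rows at least 1 of the 12 diet-fed libraries reached the lowest 8w library, and in 63 rows at least 1 of the 12 cultured libraries did. All 24 of these libraries were below the lowest 8w library in 61 rows. That number was made up of 40 of the 72 rows with a difference of 1 or more and 21 of the 78 smaller ones. The rule chose on 8w, diet and culture levels, so these counts are descriptions. The share over all rows was not taken.

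In culture, some rows were far from d0 between the end points that the rule used. The median level was 3.5 at d0, 3.27 at d1, 3.68 at d4, 3.83 at d8 and 3.63 at d12. On d1, 25 rows were lower than at d0 by 1 or more and 9 were higher by 1 or more, while 74 stayed within 0.5. Over all rows with a level of 3 or more, 14.64% were lower and 23.1% were higher by as much, against 16.7% and 6.0% of the members. This is a description, since d0 was used in the choice. The 25 rows had a median level of 4.35 at d0, 1.89 at d1 and 4.32 at d4, and 4.24 at d12. The 9 rows had 2.66, 4.39, 3.28 and, at d12, 2.99.

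Row 20735 showed the deepest dip among the abundant rows, from 798, 931 and 790 CPM at d0 to 47.9, 53.5 and 52.8 CPM at d1, and back to 897, 963 and 968 CPM at d4. The dip was shared by row 4398, which went from 58.1, 55.4 and 65.8 CPM to 2.59, 4.39 and 2.72 CPM and returned to 62.6, 59.5 and 56.3 CPM by d12. Row 14065 was slower, with 30.4, 32.7 and 25.6 CPM at d0, at most 5.15 CPM from d1 to d8, and 28.8, 23.5 and 28.1 CPM at d12. The opposite course was that of row 440, with 3.00, 3.35 and 7.87 CPM at d0, 66.7, 74.0 and 69.7 CPM at d1, and 5.03, 4.92 and 5.72 CPM at d4. At d1 the 3 libraries of each of these 4 rows lay far from those at d0, with no overlap. Rows 23525 and 11253 were also higher on d1, from at most 4.78 and 6.47 CPM at d0 to at least 11.3 and 14.6 CPM, and were at most 6.36 and 7.03 CPM at d12.

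**Figure D5:**
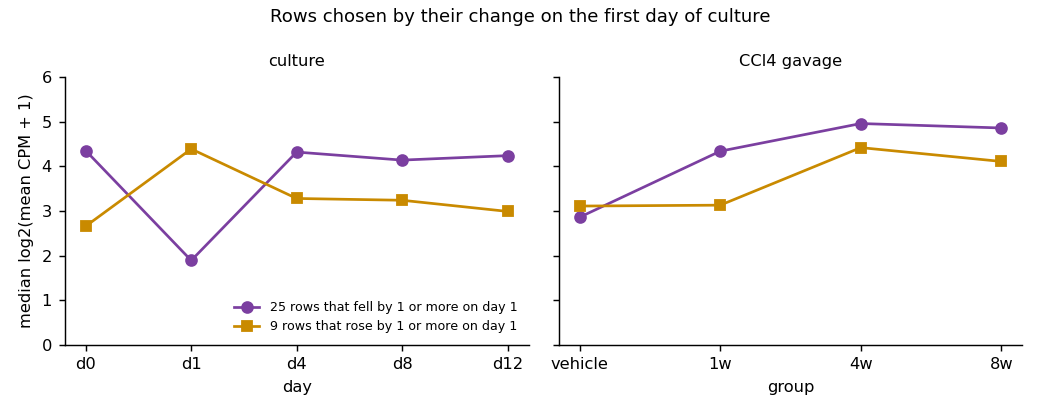
Median level, log2(mean CPM + 1), of the 25 rows that fell and the 9 rows that rose by 1 or more on the first day of culture, in the culture time course (left) and under CCl4 (right). The falling rows return from 1.89 to 4.32 by d4 and stand at 4.34 after 1 week of CCl4 from 2.86 in vehicle, while the rising rows stay at 3.13 at 1 week from 3.11.

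These rows had their onset under CCl4 at different times. Of the 25 falling rows, 19 had their onset at 1w, 5 at 4w and 1 at 8w, and of the 9 rising rows, 1 had its onset at 1w and 8 at 4w. Seen from the other side, 32.8% of the 58 rows with an onset at 1w fell by 1 or more on d1, against 5.95% of the 84 rows with an onset at 4w. The median d1 change was -0.55 in the first and 0.04 in the second. The 58 early rows were also higher at d0 than in vehicle-treated mice, by a median of 0.50, against -0.11 for the 84 later ones. The rule used both of these control groups, and onset is measured from vehicle, so these medians are descriptions. The difference between the onset classes was not tested.

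The d1, d4 and d8 libraries served in the choice only through the floor, which rows 14995 and 19868 met at d8 alone, and the steps between them were tested over the 15 IVT libraries. From d1 to d4, 35 of 102 tested members rose (34.3%), against 33.8% of all 11205 rows, and 27 fell (26.5%), against 34.7%. From d4 to d8, 24 of 111 rose (21.6%), against 18.1%, and 11 fell (9.91%), against 15.8%. Without those rows the second step had 22 of 109 that rose and 11 that fell. The shares that rose lay near the background, and the shares that fell were below it. Members were chosen to lie near d0 at d12, so fewer calls can follow from the choice, and this comparison is a description. Among the rows with an onset at 1w, 18 of 37 rose from d1 to d4 and 9 fell. Among those with an onset at 4w, 16 of 62 rose and 18 fell. Row 20735 rose by 4.21 ± 0.08 (FDR 9.9e-17, edgeR), row 4398 by 3.25 ± 0.16 (FDR 1.7e-11) and row 305 by 2.22 ± 0.14 (FDR 4e-10), while row 440 changed by -3.73 ± 0.18 (FDR 1.1e-11). All 16 of the falling rows that could be tested rose from d1 to d4, and 7 of the 9 rising rows fell. These rows were picked on the d1 libraries that enter the test, so that return is a description.

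Against d0, which the rule used, the members were more often lower than higher. The edgeR calls were 20 higher and 50 lower of 108 at d1, with a background of 41.5% and 39.2%. They were 19 and 39 of 114 at d4, with a background of 42.5% and 38.8%, and 20 and 36 of 115 at d8, with a background of 44.2% and 38.5%. At d12, 0 of 114 were higher and 40 were lower, with a background of 44.3% and 38.7%. The tests were scaled by TMM and the rule by library totals. The median d12 change over all rows with a level of 3 or more was higher by 0.27 under library totals than under TMM. The corresponding shifts were 0.12 for 8 weeks of CCl4 and 0.01 for 24 weeks of diet. On the TMM scale the median member changed by -0.14 at d12, and 29 of the 150 rows were below d0 by more than 0.5. Near-control levels at d12 are thus stated relative to library totals. On the TMM scale the median 8-week difference was 0.83.

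The controls of the 3 experiments differed in some of these rows. Chow minus vehicle had a median of -0.04 over the members, and 112 rows were within 0.5. The d0 cells minus vehicle had a median of 0.03, but 34 rows were higher by 1 or more and 24 lower by 1 or more, and 58 were within 0.5. These are 22.7% and 16.0% of the members, against 11.86% and 22.89% of all rows with a level of 3 or more. The rule used both the vehicle and the d0 libraries, so these shares are descriptions. Rows 18813 and 20491 had the largest gaps and were named after their values were seen. Row 18813 held at most 0.422 CPM in vehicle and 2.58, 2.16 and 1.00 CPM at 8w, but 104, 2.23 and 94.8 CPM at d0 and 81.8, 90.1 and 77.7 CPM at d12. The second d0 library stood apart from the other 2 in that row. Row 20491 held at most 1.69 CPM in vehicle, 3.26, 9.92 and 3.77 CPM at 8w, and 63.1, 16.9 and 52.0 CPM at d0. Such rows were far more abundant in cultured than in CCl4-exposed HSCs; the rule compares each model with its own control. Controls, diet and culture differ in experiment, isolation time and handling, which cannot be told apart here.

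For comparison, 2 sets of 150 rows were drawn from the same tables by like rules. Neither shared a row with the members, which follows largely from the rules. Rows raised by the diet only, chosen by exchanging diet and CCl4 in the rule, had a median 24-week diet difference of 3.14. Only 16 of them could be tested between 1w and 4w of CCl4, of which 1 rose and 3 fell. Rows raised in both mouse models and near control in culture were chosen by the lower of the 2 differences. Their median differences were 5.46 for CCl4 and 5.36 for the diet. Of 147 tested, 133 rose from 1w to 4w (90.5%), with a median log2 fold change of 2.09, against 44.1% and 0.56 in the members. From 12 to 16 weeks of diet, 140 of 150 rose, against 3 of 101 members. The sets were chosen on different contrasts, and these counts were not tested against each other.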

How the data were processed

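The authors aligned reads to mm10 with STAR and, per the file headers, counted exon reads of both strands with Homer, at most 3 reads per position, with 1 transcript kept per gene (versions not given in the sources used here). The deposited values are raw counts per gene, without normalization, in 1 table per experiment. Identifiers and their order were identical across the 3 tables, and rows were joined by line. Columns were assigned to samples by their titles, since the command in all 3 headers lists the same source libraries, and 0 columns of per-sample values were left unused. Of the identifiers, 23659 matched RefSeq, but no names were used. Vehicle and chow group means had a rank correlation of 0.968 over rows.

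CPM was the count over the library total, and a pseudocount of 1 was used for levels. Counts were tested with edgeR 4.0.16 (R 4.3.3): TMM, filterByExpr, quasi-likelihood test, 1 fit per experiment with all its libraries, and Benjamini-Hochberg adjustment over all rows tested. The filter kept 13513, 13510 and 13655 rows in CCl4, WD and IVT, with 148, 127 and 131 members. A count of 3 was the detection floor. Intervals and floors cover counting error only, since reads are not independent molecules. The test was checked on simulated data. DESeq2 1.42.0, other scalings, no filter, a replicate block, other pseudocounts and limits, and leaving out libraries were the alternatives. Named were the 10 members with the highest 8-week difference, the 5 highest and 5 lowest by log2 fold change among members called between 1w and 4w, the 5 most abundant at 8w, the 3 largest rises and falls on d1, the 3 highest and lowest at 12 weeks of diet, and the 3 rows on either side of the limit. Members, rule and lists were chosen with earlier results of these data known. Libraries of the mouse experiments were taken as separate mice.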

Additional observations from a re-analysis of the deposited data

Results flagged for a closer look

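A library standing apart from the other 3 was looked for in the groups of 4, for the median over the members and for the members named by rule with more than 3 counts in a library of the group. The measure was the gap to the nearest library over the range of the group, with Dixon's limit at the 95% level. Of 178 groups tested, 10 passed it, and chance alone gives about 5%. In vehicle, the ratio was 1.0 in row 23040, where 1 library held 0.844 CPM and the rest none, and 0.964 in row 22447, from the library at 11.8 CPM. It was 0.844 in row 13816 (5.06 CPM, the lowest library), 0.864 in row 4398 (70.4 CPM), 0.859 in row 440 (1.69 CPM) and 0.846 in row 5087 (59.4 CPM). In chow it was 0.911 in row 54 (6.16 CPM). At 12 weeks of diet it was 0.904 in row 8813 (2.15 CPM) and 0.85 in row 2597 (16.9 CPM), and at 24 weeks 0.922 in row 5087 (34.7 CPM, the lowest library).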

How the results depend on the processing

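Between 1w and 4w of CCl4, 69 members were called, and between 60 and 83 under the other scalings, DESeq2, no filter and the replicate block. Leaving out 1 library gave between 44 and 70, the lowest without 1w replicate A. From 12 to 16 weeks of diet, the 4 calls became 8 with DESeq2, and between 0 and 7 when 1 library was left out. In culture, all alternatives run for d1 to d4 and d4 to d8 gave counts within 1.5 times the reported 62 and 35. Of the 150 members, 59 were kept with a pseudocount of 4, 63 with a limit of 0.3 and 45 with a limit of 1 on diet and culture, so the list depends on these settings. TMM scaling kept 103. The median 8-week difference of 0.967 became 0.831 with TMM scaling and 0.843 with a pseudocount of 4, and lay between 0.973 and 1.045 without single libraries. With an onset defined as a rise of 1 or more, 36, 40 and 14 rows began at 1w, 4w and 8w, and 60 never rose so far. The 8 rows with an onset at 8w became 14 with group medians and 17 with TMM scaling. Libraries were not paired by letter in the main tests. Deviations of same-lettered libraries correlated at -0.093 to 0.064 between 1w and 4w and at -0.359 to 0.214 between 12 and 16 weeks of diet. In the 2 steps of culture they correlated at 0 to 0.041. From d4 to d8, libraries A, B and C each correlated best with their own letter, at 0.041, 0.035 and 0.018, so pairing in culture is not excluded. With the letter as a replicate block, the calls were 60, 5, 61 and 35 in these 4 steps, and the calls over all rows from 1w to 4w went from 5600 to 5036. In 23 members, leaving out some single library took the difference below 0.5. An alternative chosen after seeing the data kept only members that met the floor outside the groups compared, and it left 65, 4, 62 and 33 calls in the 4 steps. Rows with few counts in vehicle are limited by depth.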
